A study of Mus musculus with 12 samples.

Results

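Of the 15397 genes measured in the striatum of wild-type and R6/2 mice, 6 encode G protein-coupled receptors of striatal projection neurons and were followed here: Drd1, Drd2, Adora2a, Chrm4, Gpr6 and Gpr52. They were chosen by name, for what they encode, with earlier results of these data known, and all 6 are in the table. R6/2 mice carry a transgene with the first exon of mutant human huntingtin under the human huntingtin promoter and serve to model Huntington's disease. The transgene is a fragment, so these mice stand for the disease only in part. All mice are labelled C57BL/6. Each genotype was given vehicle or chow with 275 ppm PLX3397, a drug that blocks Csf1r, the receptor microglia need to survive, from week 7 to week 11 of age. This gave 4 groups of 3 mice: wild type on vehicle, wild type on PLX3397, R6/2 on vehicle and R6/2 on PLX3397. The striatum was dissected from each brain, and its RNA was sequenced in bulk. The study asked what the removal of microglia does in this model.

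Medium spiny neurons, the projection neurons that make up most of the striatum, fall into a direct and an indirect pathway. Direct-pathway neurons carry the dopamine D1 receptor (Drd1), which raises cAMP, and the muscarinic M4 receptor (Chrm4), which lowers it. Indirect-pathway neurons carry the dopamine D2 receptor (Drd2), which lowers cAMP, beside an adenosine receptor (Adora2a) and the orphan receptor Gpr6, which raise it. Gpr52, another orphan receptor that raises cAMP, is found in the striatum mainly in indirect-pathway neurons. In striatal neurons the stimulatory signal runs through the G protein subunit Gnal and the adenylyl cyclase Adcy5 to protein kinase A and its target Ppp1r1b (DARPP-32). Lower levels of several of these receptors are long known from the brains of patients with Huntington's disease and from its mouse models.

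The genes lie at chr13:54051183-54055658 (Drd1), chr9:49340360-49408177 (Drd2), chr10:75316877-75334792 (Adora2a), chr2:91922189-91929835 (Chrm4), chr10:41069977-41072290 (Gpr6) and chr1:160574717-160579704 (Gpr52), in RefSeq's coordinates on GRCm38.p6, and all are protein coding. Their promoters are shown as a description, and whether they bear on the changes of the genes was not tested. RefSeq's promoter table matched 4 of the 6 symbols. Each stretch holds the 250 bases before a start listed in that table and the 50 bases from it on, 300 bases in all, 5' to 3' on the gene's own strand. For Drd1, Chrm4 and Gpr6 that start is the edge of the gene's span given above, and for Drd2 it is base 49340403, which lies 43 bases inside the span. Capitals mark GGGCGG (the GC box) or TGACGTCA (the full cAMP response element) on either strand. Drd1 (chr13:54055609-54055908, minus strand) is the outermost of 2 listed starts. Drd2 is at chr9:49340153-49340452 (plus strand), Chrm4 at chr2:91921939-91922238 (plus strand) and Gpr6 at chr10:41072241-41072540 (minus strand).
Drd1: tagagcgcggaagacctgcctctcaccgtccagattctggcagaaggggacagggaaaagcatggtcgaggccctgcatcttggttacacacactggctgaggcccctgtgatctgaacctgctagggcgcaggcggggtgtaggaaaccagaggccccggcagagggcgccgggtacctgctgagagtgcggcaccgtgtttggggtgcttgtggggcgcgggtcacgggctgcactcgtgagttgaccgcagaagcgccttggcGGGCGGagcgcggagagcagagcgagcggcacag
Drd2: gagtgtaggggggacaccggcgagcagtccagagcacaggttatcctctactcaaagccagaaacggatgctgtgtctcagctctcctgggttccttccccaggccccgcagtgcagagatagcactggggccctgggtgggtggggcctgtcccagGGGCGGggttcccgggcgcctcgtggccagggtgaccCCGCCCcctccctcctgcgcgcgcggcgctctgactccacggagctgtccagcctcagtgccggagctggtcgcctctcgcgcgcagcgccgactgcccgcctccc
Chrm4: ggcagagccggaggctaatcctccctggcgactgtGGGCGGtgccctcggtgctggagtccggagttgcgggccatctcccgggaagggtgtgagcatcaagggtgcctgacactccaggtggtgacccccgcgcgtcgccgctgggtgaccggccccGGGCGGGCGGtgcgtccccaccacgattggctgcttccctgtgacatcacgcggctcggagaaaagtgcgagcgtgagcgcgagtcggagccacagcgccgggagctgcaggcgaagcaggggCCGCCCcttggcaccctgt
Gpr6: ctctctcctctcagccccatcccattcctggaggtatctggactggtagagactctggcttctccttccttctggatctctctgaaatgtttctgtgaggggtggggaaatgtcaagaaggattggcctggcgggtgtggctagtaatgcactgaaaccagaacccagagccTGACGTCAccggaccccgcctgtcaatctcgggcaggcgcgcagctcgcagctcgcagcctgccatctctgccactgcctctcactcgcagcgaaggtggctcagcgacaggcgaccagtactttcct
The promoters of Drd1, Drd2 and Chrm4 held 1, 2 and 4 GC boxes, of which 2 in Chrm4 overlap each other, and that of Gpr6 held 0. Gpr6 alone among the 4 held the full cAMP response element, which begins 78 bases before the start. Over all 32851 promoters in the table, 35.66% held a GC box and 1.79% the full cAMP response element. TATAAA was found in none of the 4, against 13.62% of all promoters, and CANNTG (the E-box) was found once, in Chrm4, against 72.31%. GC content was 65.67% in Drd1, 70.33% in Drd2, 70.67% in Chrm4 and 58.67% in Gpr6, and the median of all promoters was 52.67%. The matches are letters in a window and carry no information on binding.

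Libraries held 18902120 to 24293208 reads assigned to genes, and values are log2 CPM (reads scaled to library size, on a log2 scale) as deposited. The drug's effect on its target cells was present in both genotypes: 14 of 15 microglial marker genes fell in wild type and 13 of 15 in R6/2. The summed level of 17 genes shared by all medium spiny neurons, which define the striatum, was 4223 to 18146 CPM in wild-type and 1111 to 3804 CPM in R6/2 libraries, with none of the 17 at 0 reads in any library. Libraries differed in the levels of genes from neighbouring regions. The summed level of 10 markers of thalamus, septum and pallidum ran from 202 to 472 CPM in wild type on vehicle and from 56.5 to 372 on PLX3397. In R6/2 it ran from 74.9 to 290 CPM on vehicle and from 114 to 437 on PLX3397. Of these 10 markers, 1 was at 0 reads in 1 or more libraries, and no fit left out libraries by this list. The summed level of 10 cortical neuron markers ran from 266 to 689 CPM in wild type on vehicle, from 92.3 to 1052 in wild type on PLX3397, from 676 to 1507 in R6/2 on vehicle and from 59.1 to 859 in R6/2 on PLX3397, with 0 of the 10 at 0 reads in any library. The summed level of 6 choroid plexus markers reached 1060 CPM in wild-type PLX3397 mouse 1 and 4556 CPM in R6/2 vehicle mouse 1, and the lowest library was at 46.9 CPM. The lowest cortical sums were in R6/2 PLX3397 mouse 2 (59.1 CPM), wild-type PLX3397 mouse 1 (92.3) and R6/2 PLX3397 mouse 1 (95.4). Fits without such libraries and one with the mean of the cortical list as a covariate are given beside the results, and the part of these markers in the receptors' values was not tested further.

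All 6 receptor genes fell in R6/2 striatum when the genotypes were compared over both treatments. The falls ran from 4.33-fold for Chrm4 to 8.81-fold for Adora2a. Of all genes, 11.9% were called lower in this comparison (adjusted p under 0.05 in limma's moderated test with Benjamini-Hochberg adjustment over 15397 genes). The median log2 change was -2.60 over the 6 receptors and 0.01 over all genes. Among the 15397 genes ordered from the most negative change, Adora2a stood at place 23, Gpr6 at 25, Drd2 at 41, Drd1 at 61, Gpr52 at 112 and Chrm4 at 117. In bulk striatum, fewer neurons of a type and less RNA per neuron cannot be told apart. The p-values measure the spread between mice of a group, and errors below are SE for changes and SD for levels.

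**Figure D1:**
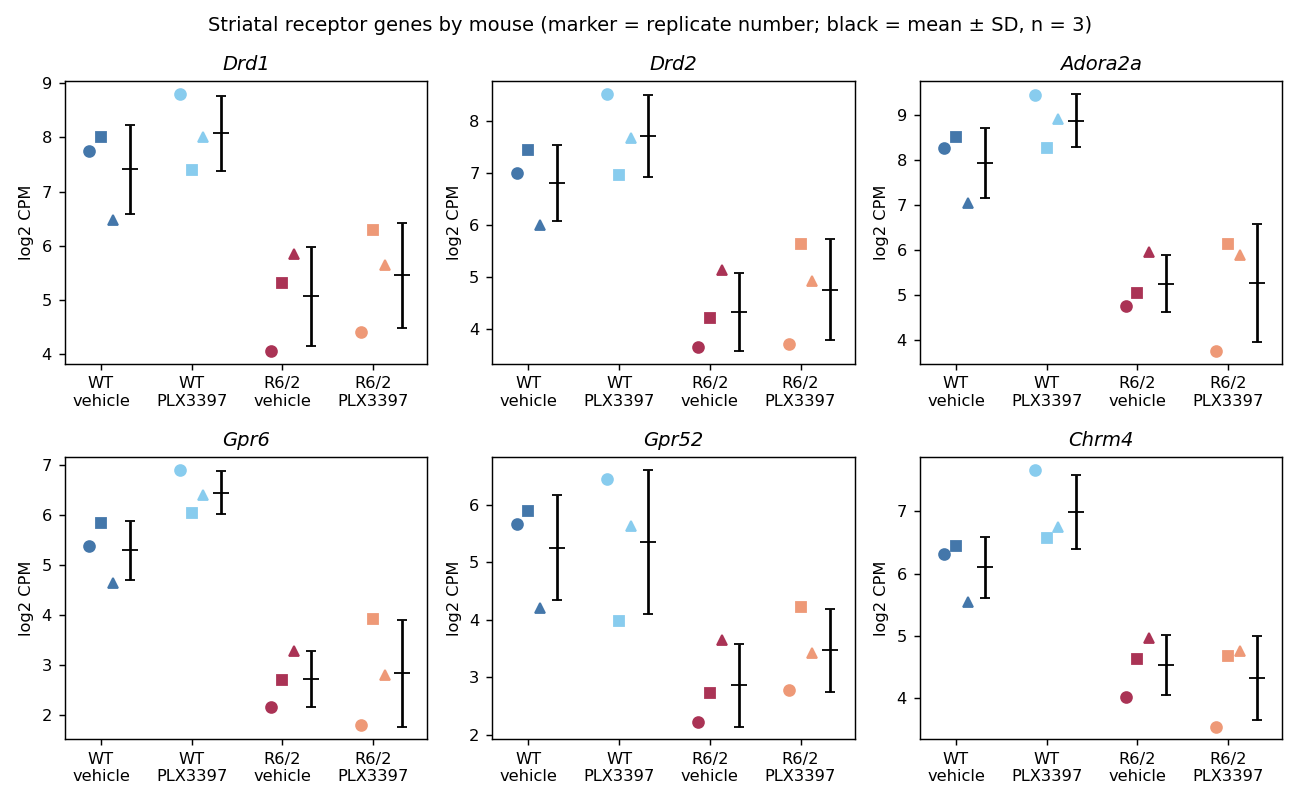
Level of each receptor gene in every mouse (y axis, log2 CPM) by group (x axis); marker shapes are replicate numbers and black bars are the mean ± SD of 3 mice. R6/2 mice lie below wild-type mice in every panel except that of Gpr52, where wild-type PLX3397 mouse 2 (3.98) lies below R6/2 PLX3397 mouse 2 (4.22).

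Drd1 encodes the D1 receptor of the direct pathway. In wild-type mice 1, 2 and 3 it was at 7.75, 8.01 and 6.48 log2 CPM on vehicle and at 8.80, 7.41 and 8.01 on PLX3397. In R6/2 mice it was at 4.06, 5.31 and 5.84 on vehicle and at 4.41, 6.30 and 5.65 on PLX3397. The highest R6/2 value (6.30) lay just below the lowest wild-type value (6.48), so the genotypes did not overlap. The change was -2.48 ± 0.42 over both treatments (adjusted p = 0.00308, limma), a 5.59-fold fall with n = 6 mice of each genotype. Reads on Drd1 numbered 439 to 1871 in R6/2 libraries and 2089 to 8654 in wild-type ones, so counting error was small beside the spread between mice.

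Chrm4, the M4 muscarinic receptor, senses acetylcholine from striatal interneurons and opposes D1 signalling. Wild-type mice had 6.31, 6.45 and 5.54 log2 CPM of it on vehicle and 7.67, 6.56 and 6.74 on PLX3397. The R6/2 mice were at 4.02, 4.63 and 4.97 on vehicle and at 3.55, 4.68 and 4.75 on PLX3397. All R6/2 mice lay below all wild-type mice. Chrm4 fell by 2.11 ± 0.28 on the log2 scale (adjusted p = 0.000987, limma), the smallest of the 6 changes with the smallest SE. Its 3' end overlaps Mdk, a growth factor gene, in RefSeq; Mdk itself changed by -0.85 ± 0.23 (adjusted p = 0.0235), and whether the counting used strand is not given in the sources used here.

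Drd2 encodes the D2 receptor of the indirect pathway. Wild-type mice were at 6.99, 7.43 and 5.99 log2 CPM on vehicle and at 8.52, 6.95 and 7.67 on PLX3397. R6/2 mice were at 3.64, 4.21 and 5.12 on vehicle and at 3.70, 5.63 and 4.93 on PLX3397, below every wild-type mouse. Drd2 fell 6.60-fold (-2.72 ± 0.41, adjusted p = 0.00154, limma). A long noncoding gene, Gm46111, overlaps Drd2 in RefSeq and is not among the genes tested.

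Adora2a encodes an adenosine receptor that opposes D2 signalling in the same neurons. Its values in wild type were 8.26, 8.50 and 7.03 log2 CPM on vehicle and 9.44, 8.26 and 8.91 on PLX3397. In R6/2 they were 4.76, 5.06 and 5.95 on vehicle and 3.76, 6.14 and 5.90 on PLX3397. The gap between the lowest wild-type mouse (7.03) and the highest R6/2 mouse (6.14) was the widest among the 6 genes. The change of -3.14 ± 0.43 (adjusted p = 0.00110, limma) left R6/2 at 11.4% of the wild-type level.

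Gpr6 is an orphan receptor with high constitutive activity towards cAMP. Wild-type mice had 5.38, 5.84 and 4.65 log2 CPM of it on vehicle and 6.91, 6.05 and 6.39 on PLX3397. R6/2 mice were at 2.16, 2.71 and 3.28 on vehicle and at 1.79, 3.93 and 2.79 on PLX3397, all below the wild-type mice. Gpr6 had the smallest adjusted p of the 6 (0.000412, limma), with a change of -3.10 ± 0.35, or 8.55-fold. In R6/2 on PLX3397 it had 83 to 359 reads per library.

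Gpr52, an orphan receptor coupled to the stimulatory G protein, is known for its effect on huntingtin levels in striatal neurons. Wild-type mice were at 5.67, 5.89 and 4.21 log2 CPM on vehicle and at 6.45, 3.98 and 5.64 on PLX3397. R6/2 mice were at 2.22, 2.72 and 3.65 on vehicle and at 2.77, 4.22 and 3.42 on PLX3397. Here the genotypes overlapped, because wild-type PLX3397 mouse 2 (3.98) lay below R6/2 PLX3397 mouse 2 (4.22). The change was -2.14 ± 0.46 (adjusted p = 0.00903, limma). Gpr52 lies within the span of Rabgap1l, a Rab GTPase-activating gene whose own change was 0.15 ± 0.26 (adjusted p = 0.700), and the strand of counting is not given.

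Of the 6 receptors, 5 did not overlap between the 6 wild-type and the 6 R6/2 mice, against 4.38% of all genes. The call for all 6 held in every other processing tried and without any single library, except that of Gpr52. Its adjusted p (limma) was 0.0573 without R6/2 PLX3397 mice 1 and 2, both low in cortical genes, and 0.0561 when wild-type PLX3397 mouse 1, the third library low in these genes, was left out too, a setting chosen after the data were seen. Gpr52 could not be fitted with a GC and length trend because GENCODE M21 gives no length for it.

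Levels can be set beside each other between genes only per transcript length, and GENCODE M21 gave an exon length for 5 of the 6. In wild type on vehicle, Adora2a was at 87.0 ± 39.4 CPM per kilobase, Drd1 at 51.7 ± 24.2, Drd2 at 47.6 ± 21.5 and Gpr6 at 23.1 ± 8.97 (SD, n = 3). Neighbours in this order overlapped within mean ± SD, but the genes share libraries and varied together. Before division by length, Adora2a minus Drd1 was 0.49 to 0.55 on the log2 scale within these libraries, and Gpr6 minus Drd2 was -1.61 to -1.35. Per exon length (3062 bases for Adora2a, 3628 for Drd1, 2547 for Drd2, 1786 for Gpr6), Adora2a stood above Drd1 and Drd2 above Gpr6 in each mouse. Drd2 minus Drd1 ran from -0.76 to -0.49 before division. Per exon length, Drd1 did not stand above Drd2 in every mouse. In R6/2 on vehicle the means stood in the same order, at 13.3 ± 6.09, 10.4 ± 5.61, 8.61 ± 4.56 and 3.86 ± 1.47 CPM per kilobase. Single mice departed from it. In wild type on PLX3397, Drd2 (91.0 ± 48.9) stood above Drd1 (80.2 ± 39.0), between Adora2a (161.6 ± 63.8) and Gpr6 (50.5 ± 15.4). In R6/2 on PLX3397 the means were 15.7 ± 9.87 for Adora2a, 13.8 ± 7.93 for Drd1, 12.2 ± 7.16 for Drd2 and 4.77 ± 3.38 for Gpr6. On vehicle, Chrm4 was at 49.4 ± 15.1 in wild-type and 16.7 ± 5.26 in R6/2 mice. Its model is 1440 bases long, which matches a coding length without UTRs and may overstate its level, so it is not placed in the order.

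The comparison on vehicle asks what the mutation changes without the drug. Here 1 of the 6 receptors, Gpr6, was called lower (-2.57 ± 0.50, adjusted p = 0.0341, limma), against 1.49% of all genes. The other changes were -2.67 ± 0.61 for Adora2a (adjusted p = 0.0510), -2.48 ± 0.57 for Drd2 (0.0523), -2.34 ± 0.60 for Drd1 (0.0681), -1.56 ± 0.40 for Chrm4 (0.0685) and -2.39 ± 0.65 for Gpr52 (0.0781). All 6 genes had an unadjusted p under 0.05, as 22.6% of all genes did. In each of them the 3 R6/2 mice lay below the 3 wild-type mice, a separation in this direction that 17.1% of all genes showed. The 95% intervals of the changes excluded 0 for all 6, from -3.68 to -1.47 for Gpr6 and from -3.83 to -0.95 for Gpr52.

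The count of calls on vehicle turned on single libraries. It was 5 without wild-type vehicle mouse 3, the mouse with the lowest wild-type receptor levels on vehicle, 4 without wild-type PLX3397 mouse 1 and 3 without wild-type PLX3397 mouse 2 or R6/2 PLX3397 mouse 1. It was 0 without wild-type vehicle mouse 1 or 2, wild-type PLX3397 mouse 3, or any of the 3 R6/2 vehicle mice, and the adjusted p of Gpr6 was then 0.0525 to 0.158 (limma). It was 0 also without both libraries that were high in choroid plexus genes, with cortical content as a covariate, and with the replicate number as a block. It was 4 in a fit of only the vehicle groups and 5 without the 3 libraries lowest in cortical genes. The sign of all 6 changes was the same in each of these fits.

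On PLX3397, all 6 receptors were called lower in R6/2, against 17.9% of all genes. Gpr6 was 12.3-fold lower (-3.62 ± 0.50, adjusted p = 0.000884, limma), Adora2a 12.2-fold (-3.60 ± 0.61, 0.00216), Drd2 7.79-fold (-2.96 ± 0.57, 0.00379), Chrm4 6.34-fold (-2.67 ± 0.40, 0.00125), Drd1 6.15-fold (-2.62 ± 0.60, 0.00809) and Gpr52 3.70-fold (-1.89 ± 0.65, 0.0445). The wild-type and R6/2 mice on PLX3397 did not overlap in 5 of the 6, the exception being Gpr52, and 24.2% of all genes were separated in this direction. Without R6/2 PLX3397 mice 1 and 2, which leaves 1 mouse in that group and borrows its spread from the others, only Gpr6 kept its call (adjusted p = 0.0181), with changes of -3.66 for Gpr6, -2.97 for Adora2a, -2.79 for Drd2, -2.42 for Drd1, -2.24 for Chrm4 and -1.94 for Gpr52. Gpr6 alone kept its call (0.0292) also without these and wild-type PLX3397 mouse 1, with changes from -3.43 for Gpr6 to -1.39 for Gpr52. The call of Gpr52 was the least stable, and was made in 9 of 22 alternatives. It was lost in limma-voom (adjusted p = 0.0593), in a fit of only the 2 groups (0.0779), with the replicate block (0.0758) and without the libraries high in choroid plexus genes (0.130). Gpr52 also lost its call without any one of 7 single libraries (adjusted p 0.0518 to 0.145): wild-type vehicle mouse 1 or 2, wild-type PLX3397 mouse 1 or 3, R6/2 vehicle mouse 2, and R6/2 PLX3397 mouse 1 or 3. Its change then ran from -1.89 to -1.34. The vehicle and PLX3397 comparisons use different mice, but 1 fit gives their spread.

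**Figure D2:**
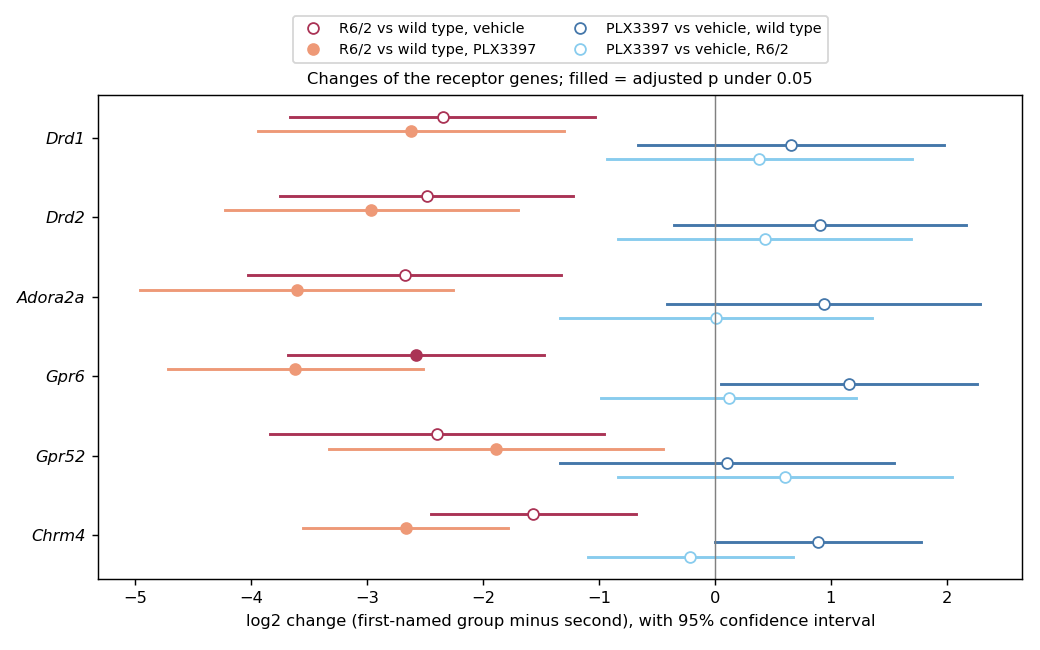
Log2 change of each receptor gene with its 95% confidence interval (x axis, first-named group minus second) for 4 comparisons; filled points have an adjusted p under 0.05 in limma. R6/2 against wild type lies left of 0 for every gene, from -3.62 to -1.56, with 1 of 6 points filled on vehicle and 6 of 6 on PLX3397, and no point of the drug comparisons is filled.

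PLX3397 against vehicle asks what the drug changes within a genotype. In wild type none of the 6 receptors was called by limma, against 14.2% of all genes in either direction, and limma-voom on recovered reads called 0 as well. All 6 point estimates were positive: 1.16 ± 0.50 for Gpr6, 0.94 ± 0.61 for Adora2a, 0.91 ± 0.57 for Drd2, 0.89 ± 0.40 for Chrm4, 0.66 ± 0.60 for Drd1 and 0.10 ± 0.65 for Gpr52. Gpr6 and Chrm4 had an unadjusted p under 0.05 (0.0409 and 0.0487, adjusted 0.130 and 0.144), as 34.1% of all genes did. In both the 3 treated mice lay above the 3 on vehicle, as 18.8% of all genes did. The 95% intervals reached from -0.66 to 1.97 for Drd1 and from -1.34 to 1.54 for Gpr52, which as ratios allows rises of up to 3.93-fold and 2.91-fold.

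In R6/2 none of the 6 was called by limma or limma-voom, and none had an unadjusted p under 0.05; of all genes, 1.1% were called in either direction and 13.1% had an unadjusted p under 0.05. The changes were 0.61 ± 0.65 for Gpr52, 0.43 ± 0.57 for Drd2, 0.38 ± 0.60 for Drd1, 0.12 ± 0.50 for Gpr6, 0.01 ± 0.61 for Adora2a and -0.21 ± 0.40 for Chrm4. The treated and untreated R6/2 mice overlapped in every receptor. The interval was widest for Gpr52, from -0.83 to 2.05, and narrowest for Chrm4, from -1.10 to 0.68. Microglial markers in the same libraries were at 49.6 to 70.6 CPM in sum on PLX3397 and at 457 to 627 CPM on vehicle. Of these markers, P2ry13, C1qc, Siglech and Trem2 were each at 0 reads in 1 or more treated libraries when both genotypes are counted together.

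The difference between the drug's change in R6/2 and in wild type was called in none of the 6 by limma or limma-voom, and none had an unadjusted p under 0.05, against 17% of all genes called (36.1% had an unadjusted p under 0.05). It was -1.10 ± 0.57 for Chrm4 (adjusted p = 0.185), -1.04 ± 0.71 for Gpr6 (0.309), -0.93 ± 0.87 for Adora2a (0.461), -0.48 ± 0.81 for Drd2 (0.697), -0.27 ± 0.85 for Drd1 (0.833) and 0.51 ± 0.93 for Gpr52 (0.719). A wider genotype difference on PLX3397 than on vehicle was therefore not shown for any receptor. The drug comparisons share their vehicle mice with the genotype comparison on vehicle, so low or high values of those mice enter both.

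The 6 receptors varied together between mice of a group. In wild-type vehicle mouse 3, wild-type PLX3397 mouse 2, R6/2 vehicle mouse 1 and R6/2 PLX3397 mouse 1 all 6 lay below their group means, by a median of 0.86, 0.64, 0.60 and 1.04 on the log2 scale. In wild-type vehicle mice 1 and 2, wild-type PLX3397 mouse 1, R6/2 vehicle mouse 3 and R6/2 PLX3397 mouse 2 all 6 lay above, by 0.27, 0.58, 0.70, 0.73 and 0.86. The remaining 3 mice were mixed. The mean of the 17 shared medium spiny neuron genes deviated the same way in each of the 9 mice, from -0.84 in wild-type vehicle mouse 3 to 0.76 in R6/2 PLX3397 mouse 2.

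In wild type, the mean of the cortical list deviated opposite to the receptors in 4 of the 5 libraries in which all 6 lay on 1 side. It was 0.58 above its group in vehicle mouse 3 and 0.76 above in PLX3397 mouse 2, both with low receptors. It stood at -0.74 in vehicle mouse 2 and at -1.97 in PLX3397 mouse 1, both with high receptors, and at 0.16 in vehicle mouse 1. In R6/2 it stood at -0.66 and -1.15 in vehicle mouse 1 and PLX3397 mouse 1, which had low receptors, and at 0.06 and -1.32 in vehicle mouse 3 and PLX3397 mouse 2, which had high ones. Pan-neuronal genes deviated by -0.41 to 0.31 over the 12 libraries, less than the receptors did. The choroid plexus mean stood 2.83 above its group in R6/2 vehicle mouse 1, where all receptors were low, and 1.92 above in wild-type PLX3397 mouse 1, where all were high.

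**Figure D3:**
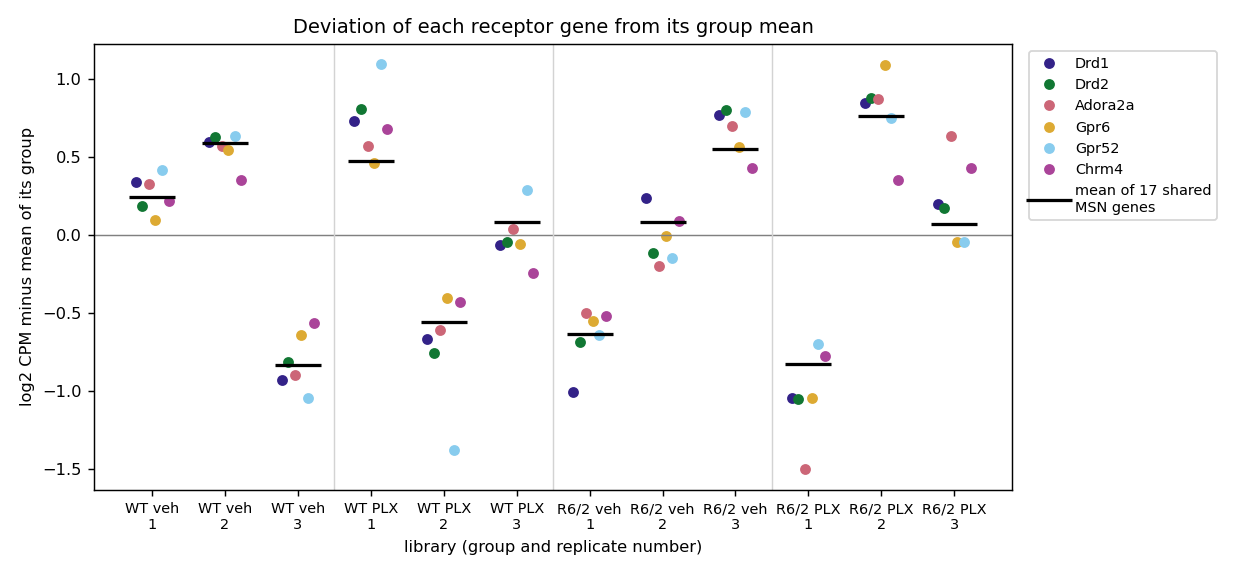
Deviation of each receptor gene from the mean of its group (y axis, log2 CPM) in each of the 12 libraries (x axis); black bars are the mean deviation of 17 shared medium spiny neuron genes. The 6 points lie on 1 side of 0 in 9 of 12 libraries, with the black bar on the same side.

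Differences within a library compare receptors in the same RNA. Drd2 minus Drd1, an indirect- against a direct-pathway receptor, averaged -0.48 ± 0.17 on the log2 scale in wild-type libraries and -0.72 ± 0.22 in R6/2 (SD, n = 6). The genotypes differed by -0.24, with p = 0.055 in an exact two-sided permutation test of genotype within treatment (400 arrangements, smallest possible p 0.005). The ratio of the dopamine receptors was thus not shown to differ, while Drd1 fell 5.59-fold and Drd2 6.60-fold. The p was 0.045 without wild-type vehicle mouse 1 and 0.015 without R6/2 vehicle mouse 1, and removal of a GC and length trend brought the difference to -0.01 (exact p = 0.95).

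Other pairs were looked at without a test, and those named here were picked after their values were seen. Adora2a minus Drd2, both of the indirect pathway, was 1.14 ± 0.15 in wild type and 0.72 ± 0.38 in R6/2 (SD, n = 6), and it ran down to 0.06 in 1 R6/2 mouse on PLX3397. Chrm4 minus Adora2a was -1.86 ± 0.25 in wild type, from -2.17 to -1.50, and -0.83 ± 0.46 in R6/2, from -1.46 to -0.22. These ranges did not overlap, with the R6/2 values nearer to 0. Gpr6 minus Adora2a stood at -2.53 ± 0.23 in wild type and at -2.49 ± 0.40 in R6/2.

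**Figure D4:**
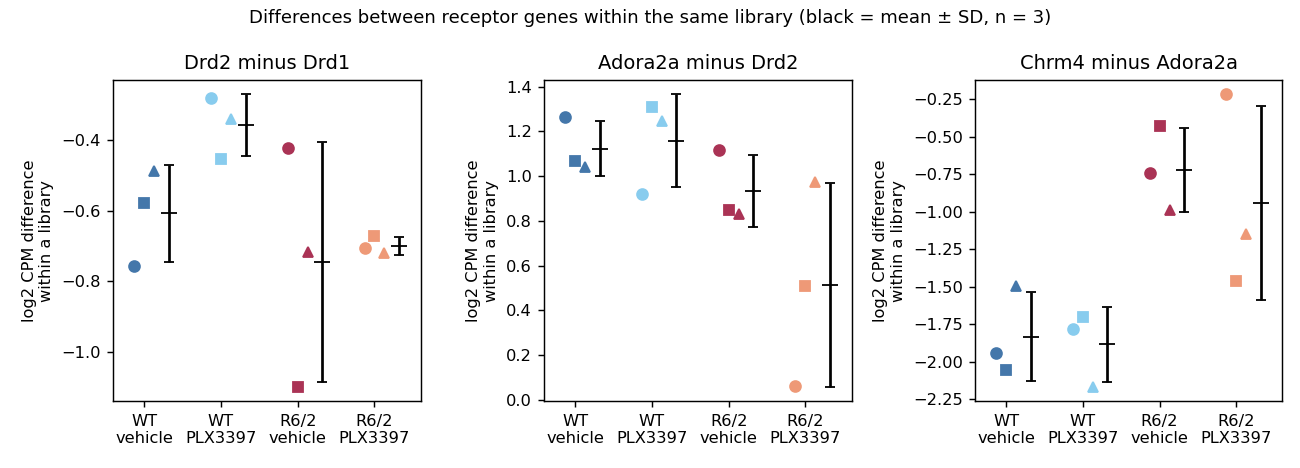
Differences between receptor genes within the same library (y axis, log2 CPM) by group (x axis), with the mean ± SD of 3 mice in black and marker shapes for replicate numbers. Chrm4 minus Adora2a lies from -2.17 to -1.50 in wild type and from -1.46 to -0.22 in R6/2, and Drd2 minus Drd1 overlaps between genotypes.

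Against the mean of the 17 shared medium spiny neuron genes in the same library, Gpr6 went from -2.38 ± 0.46 in wild type to -3.37 ± 0.24 in R6/2 and Adora2a from 0.15 ± 0.32 to -0.88 ± 0.47 (SD, n = 6). Drd2 went from -0.99 ± 0.35 to -1.60 ± 0.19 and Drd1 from -0.51 ± 0.22 to -0.88 ± 0.24. Chrm4 (-1.70 ± 0.38 and -1.71 ± 0.41) and Gpr52 (-2.94 ± 0.51 and -2.98 ± 0.21) had means close to each other over both treatments. For Chrm4 these means join opposite differences: on vehicle it ran from -2.21 to -1.69 in wild type and, higher, from -1.54 to -1.30 in R6/2, and on PLX3397 from -1.77 to -1.24 in wild type and, mostly lower, from -2.41 to -1.65 in R6/2. Gpr52 went from -2.81 ± 0.19 to -3.09 ± 0.23 on vehicle and, the other way, from -3.08 ± 0.74 to -2.86 ± 0.12 on PLX3397. Gpr6 went from -2.78 to -3.24 on vehicle and from -1.98 to -3.50 on PLX3397. Adora2a went from -0.13 to -0.70 on vehicle and from 0.44 to -1.06 on PLX3397. These differences were described and not tested.

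The profile of each receptor over the 12 libraries, taken as log2 values minus the gene's mean, was set against those of 13643 genes by the root-mean-square difference. Nearest to Drd1 were Drd2 (0.215) and Rgs9 (0.223), and the 3 nearest to Drd2 were Rgs9 (0.186), Rasd2 (0.207) and Drd1 (0.215). For Adora2a they were Ppp1r1b (0.204), Syndig1l (0.208) and Gpr6 (0.297), and for Gpr6 they were Ppp1r1b (0.158), Syndig1l (0.201) and Adora2a (0.297). Pde1b (0.185), Inf2 (0.203) and Arpp21 (0.222) stood nearest to Chrm4. Gpr52 had the least close neighbours, Pde10a (0.329), Adcy5 (0.353) and Kcnab1 (0.392). For scale, the profiles of the receptors themselves had a root-mean-square size from 1.20 for Chrm4 to 1.76 for Adora2a. The points share libraries and the genotype difference, so likeness is a description.

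Of 16 measured relatives of the 6 (other dopamine, adenosine and muscarinic receptors and orphan receptors), 4 fell, 0 rose and 12 were not called over both treatments, with a median of -0.40. Of all genes 11.9% fell and 10.5% rose in this comparison. The orphan receptor Gpr83 fell by 1.70 ± 0.22 (adjusted p = 0.000806, limma). Gpr12, from the same subfamily as Gpr6, fell by 0.86 ± 0.17 (0.00657) and the A1 receptor Adora1 by 0.64 ± 0.15 (0.0133). The D3 receptor Drd3 averaged 0.25 ± 0.48 (adjusted p = 0.745, limma), which joins -1.43 ± 0.68 on vehicle (0.243) and a rise of 1.92 ± 0.68 on PLX3397 (0.0492). Its interaction was called (0.0395), as was that of 17% of all genes, at 4 to 66 reads per library. With cortical content as a covariate, only 1 of all genes was called for the interaction. Gpr151, a habenular receptor, was not called (-0.15 ± 0.41, 0.816).

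Below the receptors, of 34 genes of the G protein and cAMP pathway, 18 fell and 4 rose over both treatments (median -0.85). On vehicle limma called 5 of them lower and 0 higher, and on PLX3397 14 lower and 7 higher. Calls over all 15397 genes, in either direction, numbered 325 on vehicle and 5389 on PLX3397. Rgs14 fell by 1.88 ± 0.17 and Rgs2 by 1.52 ± 0.15, both regulators that shorten G protein signals (adjusted p = 0.000148 and 0.000195, limma). The phosphatase subunit Ppp1ca fell by 1.13 ± 0.12 and the phosphatase inhibitor Arpp19 by 2.15 ± 0.26 (0.000296 and 0.000561). Ppp1r1b (DARPP-32) fell by 3.06 ± 0.38 (0.000655) and the cyclase Adcy5 by 2.05 ± 0.31 (0.00166). Gnal, the stimulatory subunit, was added for its role after its values were seen and fell by 1.06 ± 0.27 (0.0174). The cyclase Adcy1 (-0.29 ± 0.42, 0.654) and the transcription factor Crem (-0.11 ± 0.13, 0.569) were not called. The 4 that rose were 3 subunits of protein kinase A, Prkar2a (0.75 ± 0.12), Prkar1a (0.34 ± 0.09) and Prkaca (0.33 ± 0.09), and the inhibitory subunit Gnai3 (0.28 ± 0.08), which are named because of their direction. The list shares 5 genes with that of shared medium spiny neuron genes.

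Genes that bind, desensitize or traffic these receptors moved in both directions. Of 17 measured, 5 fell and 2 rose over both treatments, with a median of -0.19. On vehicle limma called 1 of them lower and 0 higher, and on PLX3397 4 lower and 2 higher. The sorting receptor Sorcs2 fell by 1.19 ± 0.21 (adjusted p = 0.00336, limma), Nsg1, an endosomal protein of neurons, by 0.48 ± 0.09 (0.00479) and the actin linker Flna by 0.70 ± 0.16 (0.0106). The 2 that rose were Gprasp2 (1.12 ± 0.25, 0.00990) and Gprasp1 (0.76 ± 0.17, 0.0111), which sort receptors after internalization. The receptor kinases Grk6 (-0.04 ± 0.08, 0.756) and Grk4 (0.26 ± 0.29, 0.545) were not called.

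Other markers of the neurons that carry the receptors fell in part. Of 17 genes shared by medium spiny neurons, 14 fell and 0 rose (median -1.93), among them the ryanodine receptor Ryr1 (-3.47 ± 0.36) and the sodium channel subunit Scn4b (-4.23 ± 0.50). Foxp1 (-1.01 ± 0.38, adjusted p = 0.0767) and Strn (-0.98 ± 0.39, 0.0942) were not called by limma. Of 5 measured indirect-pathway markers other than the receptors, 3 fell (median -1.32): the enkephalin precursor Penk (-3.23 ± 0.27), Upb1 (-2.97 ± 0.34) and the transcription factor Sp9 (-1.32 ± 0.20). Of 7 direct-pathway markers 4 fell (median -0.56, from -1.26 on vehicle and 0.03 on PLX3397), among them the dynorphin precursor Pdyn (3.99-fold lower), the substance P precursor Tac1 (-1.50 ± 0.28) and Slc35d3 (-1.73 ± 0.34), a protein that traffics the D1 receptor. The remaining direct-pathway gene that fell, Isl1, is also counted below among the genes of cholinergic interneurons. Isl1 was the middle gene of the 7 over both treatments and on vehicle. Its log2 level averaged 4.26 for wild-type against 3.00 for R6/2 mice without the drug. Under PLX3397 these averages were 4.21 and 4.35, so its fall was seen on vehicle only. Sfxn1 (-0.01 ± 0.08) and Ebf1 (0.24 ± 0.40) did not pass the test.

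Markers of other cells were counted over both treatments in the same way. Of 8 astrocyte genes 4 fell and 1 rose (median -0.52), and of 7 oligodendrocyte genes 3 fell and 0 rose (median -0.50). Of 12 pan-neuronal genes 2 fell and 0 rose (median -0.10), and of 10 cortical neuron genes 0 fell and 1, Cux2, rose (0.79 ± 0.23, adjusted p = 0.0345, limma; median -0.03 over the list). This median joins opposite values: on vehicle 10 of 10 cortical genes were higher in R6/2 (median 1.11, 0 called by limma), and on PLX3397 9 of 10 were lower (median -1.53, 0 called lower). The receptors were lower in R6/2 in both comparisons, and the part of cortical content in their changes was not tested further. Of 9 genes of cholinergic interneurons, the source of the ligand of Chrm4, 6 fell (median -1.57), with Chat, the enzyme that makes acetylcholine, at -2.01 ± 0.43. On vehicle 7 of the 9 fell (median -2.50), and on PLX3397 limma called 0 (median 0.12, 2 with an unadjusted p under 0.05). The interaction was called in 4 of 9 (median 1.87), against 17% of all genes. With cortical content as a covariate it was called in 1 of all 15397 genes, so most of these calls did not hold. In 10 markers of thalamus, septum and pallidum the interaction had a median of 2.05, with 2 called. In R6/2, the median change of these interneuron genes on PLX3397 was 1.97 with 2 called higher. The median change of the receptors was 0.25 with 0 called, and the difference between the lists was not tested. The summed level of the interneuron genes was 126 and 143 CPM in R6/2 PLX3397 mice 1 and 2, both low in cortical genes. It was 49.2 CPM in mouse 3 and 17.2 to 38.5 CPM on vehicle. With the cortical covariate, 102 genes were called for the drug in R6/2, all lower, so the 2 calls did not hold. Of 6 measured genes of dopamine synthesis, storage and breakdown, which concern the ligand of Drd1 and Drd2, 1 rose, the monoamine oxidase Maoa (0.36 ± 0.08, 0.0137).

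**Figure D5:**
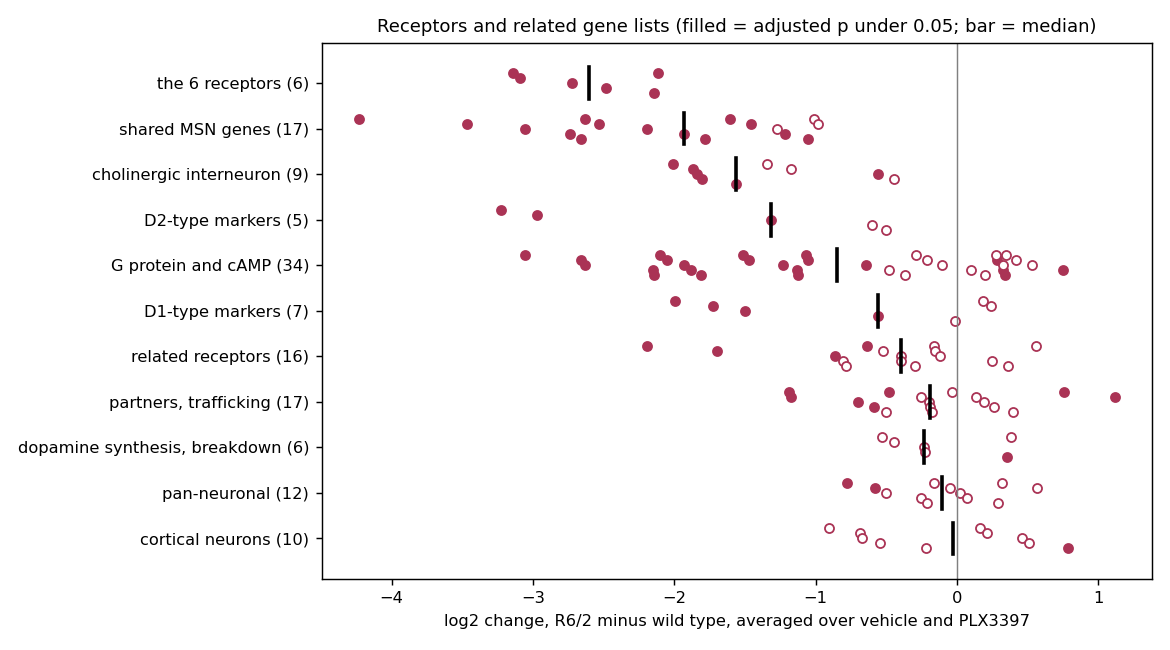
Log2 change in R6/2 against wild type averaged over vehicle and PLX3397 (x axis) for the 6 receptors and for each gene of the related lists (rows, number measured in brackets); filled points have an adjusted p under 0.05 in limma and black bars are medians. The receptors lie from -3.14 to -2.11, the shared medium spiny neuron genes from -4.23 to -0.98, and the cortical and pan-neuronal genes on both sides of 0.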

How the data were processed

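The deposited table gives 15397 genes in 12 striatal libraries of 3 mice per group. Its values are called RPKM, but the authors deposited log2 CPM: every library had the same lowest value, -3.46, and once a prior of 1.65 to 2.41 reads was taken off, 100% of values came out as whole reads (tolerance 0.1 read). The submitters' processing notes name STAR, featureCounts, edgeR, limma and mm10, without versions. The planned test on logs was run on the values as deposited. 140 rows without a symbol stayed in the fit, since they have gene IDs.

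limma 3.58.1 (R 4.3.3) was run once for all 12 libraries with 4 group means, eBayes with trend and two-sided tests, adjusted by Benjamini-Hochberg over the 15397 genes and called at an adjusted p under 0.05. Alternatives were a filter on genes under 1 CPM, 1 CPM added before the log2, rescaling by median of ratios, removal of a GC and length trend (GENCODE M21), a replicate block, only the groups compared, cortical content as a covariate, limma-voom on recovered reads, and leaving out libraries. Replicate numbers did not pair the mice: same-numbered libraries correlated at r of -0.32 to 0.40 in their deviations.

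Members, gene lists and tests were chosen with earlier results of these data known. Named genes are the 6 receptors, up to 4 members of each list with the smallest p over both treatments and up to 2 with the largest, Ppp1r1b, Penk, Pdyn and Tac1, overlapping genes and the 3 nearest profiles of each receptor; the text names a part of them, and 1 gene is not reported here. Replicates correlated at r = 0.938 to 0.986. Python 3.11.15 served for tables and plots, with pandas 2.3.3, numpy 2.4.6, matplotlib 3.10.9 and scipy 1.17.1.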

Additional observations from a re-analysis of the deposited data

How the results depend on the processing

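Of 810 values of single receptors under alternatives, 724 kept their direction and their side of the threshold, 32 lost a call, 22 gained one and 32 changed sign; no change of sign concerned a genotype comparison, and the causes were not tested. With the GC and length trend removed, 865 genes were called on vehicle in place of 325, 3524 in place of 5389 on PLX3397, 1150 in place of 2191 for the drug in wild type and 567 in place of 2617 for the interaction, and 4 of 5 receptors were called on vehicle. This removal moved the median of all genes on vehicle from 0.01 to 0.10. With the replicate block these counts were 40 on vehicle, 1110 for the drug in wild type and 1432 for the interaction, with 0 receptors called on vehicle; the block ended the calls of Gpr6 on vehicle and of Gpr52 on PLX3397. A linear fit with the block, in place of the exact test, gave -0.24 for Drd2 minus Drd1 (p = 0.0761). In fits of only the groups compared, 2934 genes were called for genotype on PLX3397, 351 and 98 for the drug in wild type and R6/2, and 4 receptors on vehicle. With cortical content as a covariate, 66 genes were called on vehicle, 102 for the drug in R6/2 and 1 for the interaction, with 0 receptors on vehicle; limma-voom called 145 genes on vehicle. Without both libraries that were high in choroid plexus genes 103 genes and 0 receptors were called on vehicle and 3560 genes for the drug in wild type. Without R6/2 PLX3397 mice 1 and 2, which are low in cortical genes, 237 genes and 1 receptor were called on PLX3397, 1068 genes over both treatments, 1317 and 58 for the drug in wild type and R6/2, 0 for the interaction (5561 genes had an unadjusted p under 0.05 with all libraries), and 2 receptors on vehicle. When wild-type PLX3397 mouse 1, also low in them, was left out as well (chosen after the data were seen), 737 genes and 5 receptors were called on vehicle, 323 and 1 on PLX3397, 1580 genes over both treatments, 59 for the drug in R6/2 and 0 for the interaction. Signs then changed in Gpr52 (-0.44) for the drug in wild type, Chrm4 (0.21) for the drug in R6/2, and Drd1 (0.29) and Drd2 (0.10) for the interaction. Signs changed for the drug in wild type in Gpr52 (-0.44 without the choroid libraries) and in R6/2 in Drd1 (-0.12), Adora2a (-0.24) and Gpr6 (-0.16) without the choroid libraries, Gpr6 (-0.19) with the cortical covariate, and Chrm4 (0.11 with the GC and length trend removed, 0.21 without R6/2 PLX3397 mice 1 and 2); the interaction of Gpr52 went to -0.041 with the covariate. Leaving out single libraries gave 1 (wild-type vehicle 1) to 561 genes and 0 to 5 receptors on vehicle, 3383 to 5630 genes and 5 to 6 receptors on PLX3397, 2257 to 3982 genes over both treatments, 228 to 2716 and 125 to 381 for the drug in wild type and R6/2, and 537 to 3532 for the interaction. For the receptors that changed sign it gave -0.44 to 0.79 for Gpr52 with the drug in wild type, -0.12 to 0.90 for Drd1, -0.0082 to 0.95 for Drd2, -0.42 to 0.76 for Adora2a, -0.43 to 0.64 for Gpr6 and -0.47 to 0.18 for Chrm4 with the drug in R6/2, and -0.78 to 0.25 for Drd1, -0.92 to 0.047 for Drd2 and -0.18 to 1.05 for Gpr52 in the interaction. Drd2 minus Drd1 ran from -0.32 to -0.15 (exact p 0.015 to 0.155). The planned edgeR test was not run. The deposited values are logs, and the reads recovered from them were tested with limma-voom only. The lowest count of a receptor in a library was 83 reads; no fit tested what limits the number of calls.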
